A study of Homo sapiens with 4 samples.

Results

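The genes described here carry names of antisense long noncoding RNAs and were detected in H9 cells, an established line of human embryonic stem cells. They were chosen by name and level: rows whose symbol ends in -AS and 1 digit, averaging 1 TPM or more across the 4 libraries. TPM is a level scaled to a common library total and corrected for transcript length, so levels of different genes can be set side by side. Among all 60671 rows, 1440 carried such a name, 785 of these were above 0 in at least 1 library, and 186 reached the mean of 1 TPM. OIP5-AS1 and EPB41L4A-AS1 were omitted by name, as were HOX cluster genes, of which 0 reached this mean. This left 184 antisense RNAs, 12.8% of the antisense rows. GENCODE lists 181 of them as long noncoding RNAs, and TP73-AS1, EMC3-AS1 and SLC44A3-AS1 as transcribed pseudogenes. Their level was the measure that selected them, and levels are therefore given as a description with no test.

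An antisense RNA is transcribed from the DNA strand opposite to a sense gene, after which it is named. Some start beside the sense gene's own start and run the other way, and others start within or beyond the sense gene and run back across it. Members of this class are known to act on the neighbouring gene through chromatin or transcription, to pair with other RNAs in the cytoplasm, or to have no known role, and most are expressed at low levels.

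The study sequenced polyadenylated RNA from 2 groups of 2 libraries, all of H9 cells in mTeSR medium with no treatment. The control group is labelled only as control. For the RNA-seq of re-expressing cells the study names mock controls, which it describes as clones given empty vector. The other group, KO+OE, carried the genotype CFIm25 KO + 3Flag-CFIm25 overexpression, with the tagged protein delivered by lentivirus. CFIm25, encoded by NUDT21, is a subunit of the cleavage factor that helps to choose the site at which a transcript is cleaved and given its poly(A) tail. The series title calls the edit a knockdown rather than a knockout. By the study's account the edited clones kept a low level of CFIm25 protein that lacks a short N-terminal part. The re-expression was made, by the same account, in 1 edited clone, so clone and genotype cannot be told apart. Edited cells without re-expression were not analysed here. The labels do not say whether replicates were separate cultures, so p-values measure only the spread between these libraries, which may be technical.

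The 4 libraries resembled each other in the measures that bear on these genes. NUDT21 itself was at 160.67 and 152.20 TPM in control against 162.09 and 156.60 TPM in KO+OE, and its level did not separate the groups. Reads of the lentiviral copy and of the endogenous gene cannot be told apart in this table. All 8 stem cell markers were between 15.85 and 2212 TPM, with a summed level of 3286 to 3322 TPM per library. Of 13 germ layer markers, 10 were under 1 TPM in every library, and NES, TUBB3 and GATA6 were above it. The summed germ layer level was 183 and 187 TPM in control and 182 and 181 TPM in KO+OE. Of 4 fibroblast markers, COL3A1 and DCN were at or near 0, with at most 0.08 TPM. The others were expressed, COL1A1 at 53.86 to 55.6 TPM and THY1, a sense gene here, at 1228 to 1352 TPM. The fibroblast markers thus did not all point the same way. The summed fibroblast level was 1284 and 1407 TPM in control and 1346 and 1399 TPM in KO+OE. In bulk RNA, fewer cells of a type and less RNA per cell cannot be told apart.

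Most of the antisense RNAs were weakly expressed. Their median mean level was 2.84 TPM, against 7.77 TPM over the 12319 genes that averaged 1 TPM or more. Means lay between 1 and 2 TPM for 59 of them, between 2 and 5 TPM for 73, between 5 and 10 TPM for 30, between 10 and 50 TPM for 19, and above that for 3. At the lower limit, SMIM15-AS1, HSD11B1-AS1 and KIF9-AS1 were just included, with means of 1.04, 1.03 and 1 TPM. Just under it were ZNF649-AS1 at 0.963 TPM and NAV2-AS1 and PPP1R26-AS1, both at 0.93 TPM. In single libraries 165 to 176 of the 184 were at or above 1 TPM, and 151 were so in all 4. SAPCD1-AS1 and HDHD5-AS1 were each listed at 0 in 1 control library.

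A handful of genes held much of the total. The members summed to 1619 and 1676 TPM in the control libraries and to 1648 and 1599 TPM in the KO+OE libraries, and SLC7A14-AS1, THY1-AS1 and FOXD3-AS1 made up 41.7% to 43.8% of that sum. SLC7A14-AS1 (ENSG00000285051), on the plus strand of chromosome 3 from 170467285 to 170755205 in GRCh38, was the most abundant, at 242.25 and 256.43 TPM in control and 274.69 and 255.56 TPM in KO+OE. Its sense gene SLC7A14, of the cationic amino acid transporter family, was listed at only 0.49 to 0.51 TPM. FOXD3-AS1 (ENSG00000230798), on the minus strand of chromosome 1, positions 63320884 to 63324441, was at 227.14 and 207.47 TPM in control against 224.24 and 206.10 TPM in KO+OE. FOXD3, a forkhead transcription factor that helps to maintain pluripotent cells, was between 7.37 and 8.34 TPM. In both pairs the antisense RNA was far above the sense gene in every library, and the groups overlapped.

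THY1-AS1 (ENSG00000263873) was at 221.33 and 235.13 TPM in control against 222.63 and 233.87 TPM in KO+OE. Its sense gene THY1, the surface antigen CD90, was at 1228 to 1352 TPM. All 632 exon bases of THY1-AS1 lie within exons of THY1 on the opposite strand. Whether reads were counted by strand is not given in the sources used here. Where exons overlap, reads of the sense and the antisense gene therefore cannot be told apart, and such levels are uncertain. In THY1 the ratio of antisense to sense level stayed between 0.172 and 0.180 in all libraries.

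The next most abundant members were MAPKAPK5-AS1, CYP1B1-AS1, HDAC2-AS2, POT1-AS1, ARRDC1-AS1, ATP2A1-AS1 and RCC2-AS1, with means from 42.7 TPM down to 25.8 TPM. MAPKAPK5-AS1 was at 38.91 and 48.28 TPM in control against 44.67 and 38.81 TPM in KO+OE, and the group means differed by less than the replicates of either group. It starts 674 bases from the start of MAPKAPK5, a kinase activated by MAP kinases, which was at 19.87 to 24.25 TPM. CYP1B1-AS1 was listed at 32.21 to 41.46 TPM, while CYP1B1, a cytochrome P450 enzyme, was at 0.03 to 0.28 TPM. POT1-AS1 was listed at 25.45 to 28.61 TPM, while POT1, the shelterin protein that binds single-stranded telomeric DNA, was at 0.59 to 1.66 TPM. HDAC2-AS2, at 34.88 to 37.89 TPM, was above HDAC2, a histone deacetylase at 15.48 to 18.36 TPM. ARRDC1-AS1 and ARRDC1 lay close together, at 24.80 to 28.92 and 21.69 to 24.70 TPM. RCC2-AS1, like THY1-AS1, lies wholly within exons of its sense gene and was below it, with a mean of 25.8 TPM against 107 TPM for RCC2, a regulator of mitosis.

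Each antisense RNA was then set against its sense gene. A row for the sense gene was found for 183 of the 184, the exception being RPARP-AS1, and CACNA1C and TSPEAR each had 2 antisense members. The sense genes had a median mean of 3.32 TPM. In 131 pairs the sense gene averaged at least 1 TPM, in 63 at least 10 TPM and in 19 at least 100 TPM, and in 52 it was under 1 TPM. For TSBP1-AS1, BBOX1-AS1 and NR2F1-AS1 the sense gene was listed at 0 in all libraries. The antisense RNA was above its sense gene in mean for 91 of the 183 pairs. Members had to average 1 TPM and sense genes did not, so the 52 pairs with a sense gene under 1 TPM were above by selection. Over all 183 pairs the antisense RNA was above in all 4 libraries for 76 and below in all 4 for 85. The order within a pair was thus the same in every library for most pairs, and the selection bears on these counts too.

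Among the 131 pairs with an expressed sense gene, the antisense to sense ratio had a median of 0.400 and ran from 0.000593 to 27.0. It was above 1 in 39 pairs and under 0.1 in 37. FOXD3-AS1 had the highest ratio. ATP2A1-AS1 followed with a ratio of 14.6, at 24.27 to 27.91 TPM. ATP2A1, a calcium pump of fast skeletal muscle, was at 1.52 to 2.06 TPM. Sense exons hold 49.1% of the exon bases of ATP2A1-AS1 and 27.6% of those of FOXD3-AS1, so both ratios are uncertain. Ratios of 6.67, 5.36 and 4.71 were found for SNTG2-AS1, TP73-AS1 and WDR11-AS1. TP73-AS1 was at 18.34 to 19.96 TPM and its sense gene TP73, of the p53 family, at 3.43 to 3.79 TPM.

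The lowest ratios belonged to weak antisense RNAs at highly expressed genes. MIF-AS1 was at 1.10 and 1.30 TPM in control against 1.39 and 1.62 TPM in KO+OE, beside 2201 to 2332 TPM for MIF, a cytokine gene. SLC2A1-AS1 had a ratio of 0.00578 to SLC2A1, the glucose transporter GLUT1, which was at 353 to 411 TPM. PPP1R14B-AS1, SRP14-AS1 and ASMTL-AS1 had ratios of 0.00633, 0.00642 and 0.00708. ASMTL-AS1 varied widely between the KO+OE replicates, at 0.87 and 0.89 TPM in control against 0.31 and 2.65 TPM in KO+OE.

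**Figure D1:**
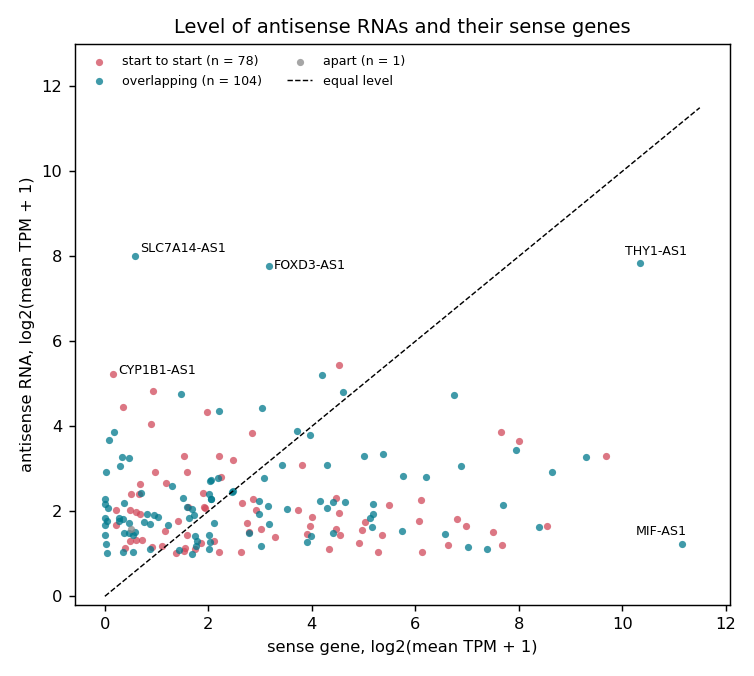
Mean level of each antisense RNA (vertical axis) against that of its sense gene (horizontal axis), both as log2(mean TPM + 1) over 4 libraries, for 183 pairs coloured by how the genes lie to each other. Points above the dashed line are the 91 pairs in which the antisense RNA was the higher, 52 of them by selection because the sense gene was under 1 TPM. The cloud shows no common slope.

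Across the 183 pairs, levels of antisense and sense genes were nearly unrelated, with a Spearman rho of 0.067 and a Pearson r of 0.10 on the log2 scale. All pairs share the same 4 libraries, and some share reads, so these values are a description. By library the Spearman rho was between 0.041 and 0.10. By position, 78 pairs lay start to start, with starts of the canonical transcripts at most 1000 bases apart and a median of 231 bases. Another 104 overlapped in other ways, and 1 pair, C2CD4D-AS1, lay apart from its sense gene. The rho was -0.086 in start-to-start and 0.21 in overlapping pairs. The antisense RNA was above its sense gene in 34 of 78 start-to-start pairs (43.6%) and in 56 of 104 overlapping pairs (53.8%). The sense gene averaged at least 1 TPM in 60 and 71 of these pairs. In the rest the selection placed the antisense RNA above, so the 2 shares are not free of it.

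Shared exon bases varied widely between pairs. In 136 of 183 pairs some exon bases of the antisense RNA lay within sense exons, and in 47 none did. At least 50% of them did so in 13 pairs, including THY1-AS1, RCC2-AS1 and RNF185-AS1 at 100%, ARAP1-AS1 at 99.2% and PYCARD-AS1 at 90.5%. In these 13 pairs the level rho was 0.47, and by library it was 0.43 to 0.64. It was -0.028 in the 47 pairs with no shared exon base and 0.044 in the other 123. The part of shared reads in these values was not tested. RNF185-AS1 was at 9.85 and 14.49 TPM in control against 13.19 and 14.14 TPM in KO+OE, beside 16.18, 14.34, 13.79 and 14.02 TPM for RNF185, a ubiquitin ligase. Among all 184 members, 9 had at least 20% of their exon bases within exons of another coding gene, with VASH1-AS1 and SAPCD1-AS1 also among the 13 above. Another is ITFG2-AS1 with FKBP4, a highly expressed gene at 258 TPM.

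Promoter sequences were examined for what the members share apart from level. RefSeq windows on GRCh38.p14, from 250 bases before to 50 bases after the RefSeq start used, were found for 129 of the 184. Their median GC content was 63.7%, against 58.3% in all 27305 windows. CpG-rich windows, with at least 50% GC and an observed to expected CpG ratio of at least 0.6, were 93 of 129 (72.1%) against 46.9% of all windows. The GC box GGGCGG, on either strand, was in 77 (59.7%) against 44.6%, and the ETS-type motif CCGGAAG in 23 (17.8%) against 10.7%. CCAAT was in 31.8% against 35.7%, and TATAAA in 5.43% against 11.9%, again on either strand. GC box and CpG content overlap in their letters. These shares are descriptions, and expressed genes in general were not set apart among all windows.

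Both genes of a pair had a window in 117 cases. The windows shared bases in 17 of 50 start-to-start pairs and in 2 of 66 overlapping pairs. These classes are those of GENCODE. In some start-to-start pairs the RefSeq starts lay more than 1000 bases apart, such as 181587 bases for CNIH3-AS2 and 1857 bases for NECTIN3-AS1. Windows are shown for 5 pairs that recur in the results, each sharing bases with the window of the sense gene on the other strand: 208 bases for FOXD3-AS1, 147 for POT1-AS1, 261 for TPT1-AS1, 258 for DICER1-AS1 and 260 for LENG8-AS1. FOXD3-AS1 counted among the overlapping pairs because canonical starts lay 1874 bases apart in GENCODE. The RefSeq start used for its window lay 109 bases from that of FOXD3. That start falls inside the span given above for FOXD3-AS1, not at its outer end, so the 208 shared bases belong to an internal start. Sequences are 5′ to 3′ in the direction of the antisense gene, and capitals mark GGGCGG or CCAAT on either strand, of which the FOXD3-AS1 window held none.
FOXD3-AS1 (chr1:63322409-63322708, minus strand): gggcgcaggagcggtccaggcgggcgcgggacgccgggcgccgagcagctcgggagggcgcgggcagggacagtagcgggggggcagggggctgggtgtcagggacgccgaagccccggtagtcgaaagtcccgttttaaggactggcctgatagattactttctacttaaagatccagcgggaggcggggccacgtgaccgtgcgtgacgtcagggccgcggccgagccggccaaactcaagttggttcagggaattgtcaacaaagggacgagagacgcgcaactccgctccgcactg
POT1-AS1 (chr7:124929623-124929922, plus strand): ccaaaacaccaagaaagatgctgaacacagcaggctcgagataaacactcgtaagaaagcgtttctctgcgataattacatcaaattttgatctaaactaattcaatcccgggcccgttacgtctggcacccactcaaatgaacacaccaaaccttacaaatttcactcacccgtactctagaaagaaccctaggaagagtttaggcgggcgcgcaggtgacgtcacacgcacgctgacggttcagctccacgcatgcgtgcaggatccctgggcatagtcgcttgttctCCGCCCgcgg
TPT1-AS1 (chr13:45341095-45341394, plus strand): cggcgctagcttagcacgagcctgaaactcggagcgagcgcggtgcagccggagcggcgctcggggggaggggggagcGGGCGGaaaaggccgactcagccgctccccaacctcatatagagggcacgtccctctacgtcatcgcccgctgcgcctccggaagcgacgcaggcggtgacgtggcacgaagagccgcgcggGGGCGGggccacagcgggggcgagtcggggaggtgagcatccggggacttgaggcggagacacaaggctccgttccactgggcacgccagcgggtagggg
DICER1-AS1 (chr14:95157438-95157737, plus strand): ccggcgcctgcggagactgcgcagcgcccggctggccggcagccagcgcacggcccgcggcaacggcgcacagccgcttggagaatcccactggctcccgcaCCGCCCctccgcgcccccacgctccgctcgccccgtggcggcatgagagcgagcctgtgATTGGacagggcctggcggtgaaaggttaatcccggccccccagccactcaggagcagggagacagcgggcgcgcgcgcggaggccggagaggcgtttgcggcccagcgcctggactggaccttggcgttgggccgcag
LENG8-AS1 (chr19:54448989-54449288, minus strand): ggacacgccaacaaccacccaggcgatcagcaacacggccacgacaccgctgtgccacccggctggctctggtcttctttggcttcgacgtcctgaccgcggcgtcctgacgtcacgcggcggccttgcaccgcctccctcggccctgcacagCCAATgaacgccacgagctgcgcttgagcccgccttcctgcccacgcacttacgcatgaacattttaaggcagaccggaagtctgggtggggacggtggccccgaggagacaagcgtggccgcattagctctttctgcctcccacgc
These stretches are G and C rich except that of POT1-AS1, with 50.7% against 65.3% to 75% in the others. TPT1-AS1 carried 2 GC boxes, POT1-AS1 1, and DICER1-AS1 both a GC box and a CCAAT match.

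KO+OE was compared with control to ask how far the antisense RNAs of the re-expressing line stood from those of control cells. No antisense RNA was called by limma at an adjusted p under 0.05 (Benjamini-Hochberg over all genes), beside 0.00812% of all 12319 genes tested, and the smallest adjusted p among the 184 was 0.928. At an unadjusted p under 0.05 there were 9, or 4.89%, beside a background of 5.33% of all genes. Of these, 3 were higher in KO+OE (background 2.26%) and 6 lower (background 3.06%). Only OR2A1-AS1 also differed by more than 2-fold, as did 0.43% of all genes. The share of antisense RNAs past the unadjusted threshold was thus near that of all genes. Without control replicate 1 the count of 9 became 16 (8.7%), where 4.93% of all genes passed.

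The typical difference was close to 0. The median log2 fold change was -0.027, with quartiles of -0.20 and 0.12, beside a median of -0.012 over all genes tested. Values were above 0 for 82 (44.6%) and below 0 for 102 (55.4%), against 45.5% and 54.5% of all genes. The 2 groups did not overlap in 67 of the 184 (36.4%, background 34.1%), with KO+OE higher in 22 (12%, background 14.5%) and lower in 45 (24.5%, background 19.6%). The 95% interval of the fold change lay within 2-fold in both directions for 154 of the 184 (83.7%), against 92.6% of all genes. Among genes with means under 5 TPM it did so for 77.3% of 132 antisense RNAs and for 84.9% of all genes of such level. In the others the interval reached 2-fold or more. The size of difference that could be detected in the weaker members was not measured.

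**Figure D2:**
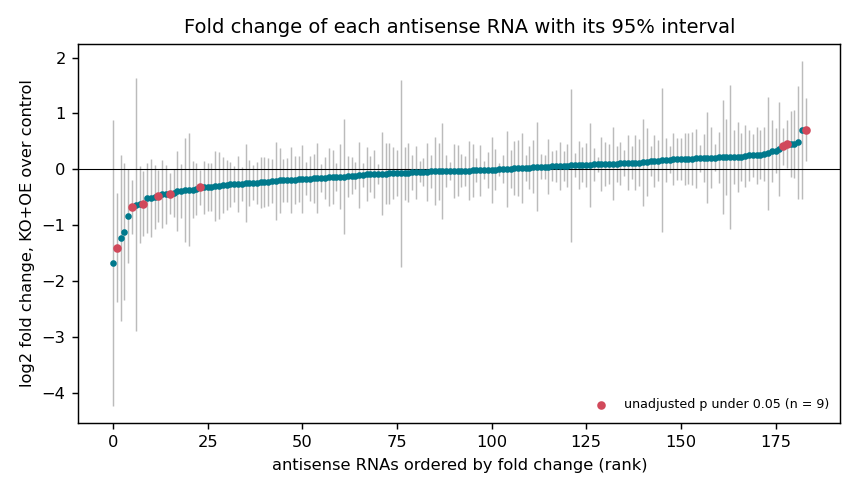
Log2 fold change of KO+OE over control on the log2(TPM + 1) scale (vertical axis) for the 184 antisense RNAs in order (horizontal axis, rank), with limma's 95% confidence intervals as grey bars. Most points lie near 0 with intervals across it, and the 9 at an unadjusted p under 0.05 are in red.

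The spread between single libraries of a group is given beside the difference between group means. A difference between means of 2 libraries is smaller than one between single libraries when nothing differs, so the values are a description. For members with means of 1 to 2 TPM the median absolute difference on the log2 scale was 0.21 within control, 0.21 within KO+OE and 0.19 between group means. All genes of that range gave 0.21, 0.20 and 0.16. From 2 to 5 TPM the members gave 0.22, 0.20 and 0.18, and all genes 0.18, 0.17 and 0.13. From 5 to 10 TPM the members gave 0.097, 0.14 and 0.15, and all genes 0.13, 0.13 and 0.10. At 10 TPM and above the members gave 0.13, 0.13 and 0.079, and all genes 0.069, 0.070 and 0.051. That last range has no upper limit, so levels within it were not matched between members and all genes.

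The 9 antisense RNAs at an unadjusted p under 0.05 are described singly, and each had an adjusted p = 0.928 from limma, with unadjusted values from 0.0140 for OR2A1-AS1 to 0.0460 for SLC16A1-AS1. Of these, 7 lay start to start with their sense gene, as did 78 of all 183 pairs. OR2A1-AS1 (ENSG00000244479), on the minus strand of chromosome 7, positions 144238573 to 144355718, was at 4.72 and 5.33 TPM in control against 2.35 and 0.55 TPM in KO+OE. Both KO+OE libraries were below both control libraries, but they differed from each other by more than the control libraries did. The log2 fold change was -1.40, with a 95% interval of -2.37 to -0.43, which became -0.84 without KO+OE replicate 2 and -1.96 when KO+OE replicate 1 was left out. OR2A1 itself, an olfactory receptor gene of a family with near-identical copies, was at most 0.10 TPM, and reads shared between such copies make the level of this locus uncertain.

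The antisense RNAs of 2 genes of histone modification lay on opposite sides. ASH1L-AS1 (ENSG00000235919), on the plus strand of chromosome 1 from 155562042 to 155563944, was at 5.22 and 4.94 TPM in control against 3.10 and 3.92 TPM in KO+OE. The groups did not overlap, and the log2 fold change was -0.44 (95% interval -0.80 to -0.070). ASH1L, a histone H3 methyltransferase, was at 0.29 TPM in 3 libraries and 0.80 TPM in control replicate 1. KANSL1-AS1 (ENSG00000214401), on chromosome 17 from 46193573 to 46196723, was at 5.4 and 4.57 TPM in control against 6.48 and 7.41 TPM in KO+OE. Both KO+OE libraries were higher, with a log2 fold change of 0.41 (95% interval 0.075 to 0.74), while KANSL1, a subunit of a histone acetyltransferase complex, stayed between 3.43 and 4.33 TPM with groups that overlapped.

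DICER1-AS1 (ENSG00000235706), on the plus strand of chromosome 14 from 95157688 to 95179933, was at 7.97 and 7.61 TPM in control against 4.35 and 6.45 TPM in KO+OE. Both KO+OE libraries were the lower ones, with a log2 fold change of -0.48 (95% interval -0.94 to -0.014) that was -0.24 without KO+OE replicate 1. DICER1, the nuclease that cuts microRNA precursors, was at 1.14 and 1.07 TPM in control against 0.92 and 0.72 TPM in KO+OE, and with a mean under 1 TPM it was not tested. Its values were also lower in both KO+OE libraries. Starts of the 2 genes were 120 bases apart.

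TPT1-AS1 (ENSG00000170919), on the plus strand of chromosome 13 from 45341345 to 45391483, was at 6.93 and 7.80 TPM in control against 12.22 and 8.82 TPM in KO+OE. It was higher in both KO+OE libraries, with a log2 fold change of 0.45 (95% interval 0.018 to 0.88) that was 0.23 without KO+OE replicate 1. TPT1, which encodes the translationally controlled tumour protein, was at 805 to 840 TPM in all libraries with a log2 fold change of 0.016. LENG8-AS1 (ENSG00000226696), on the minus strand of chromosome 19, positions 54444816 to 54449038, was at 2.35 and 3.84 TPM in control against 1.48 and 1.77 TPM in KO+OE, which gave a log2 fold change of -0.62 (95% interval -1.20 to -0.039) that was -0.35 without control replicate 2. LENG8 was at 29.35 and 29.87 TPM in control against 34.05 and 33.47 TPM in KO+OE, which gave a log2 fold change of 0.18. Among pairs in which both genes were tested, this was the only one with both at an unadjusted p under 0.05, the antisense RNA lower and the sense gene higher in KO+OE.

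In the other 3 pairs the groups overlapped for the sense gene. BNC2-AS1 (ENSG00000234779) was at 3.16 and 2.65 TPM in control against 1.18 and 1.74 TPM in KO+OE, which gave a log2 fold change of -0.67 (95% interval -1.16 to -0.19). It lies on the plus strand of chromosome 9 from 16726814 to 16727524, within the reach of BNC2, a zinc finger gene at 0.99 to 1.51 TPM with groups that overlapped. DLG5-AS1 (ENSG00000233871), on chromosome 10 from 77926812 to 77929825, was at 2.57 and 1.62 TPM in control against 4.60 and 3.46 TPM in KO+OE, which gave a log2 fold change of 0.71 (95% interval 0.15 to 1.27). DLG5, a scaffold protein of cell junctions, was at 11.67 to 12.99 TPM. SLC16A1-AS1 (ENSG00000226419), on chromosome 1 from 112956415 to 112964072, was at 4.51 and 4.50 TPM in control against 3.58 and 3.21 TPM in KO+OE. The log2 fold change was -0.33 (95% interval -0.64 to -0.0085), while SLC16A1, the lactate transporter MCT1, was at 20.60 to 22.24 TPM.

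**Figure D3:**
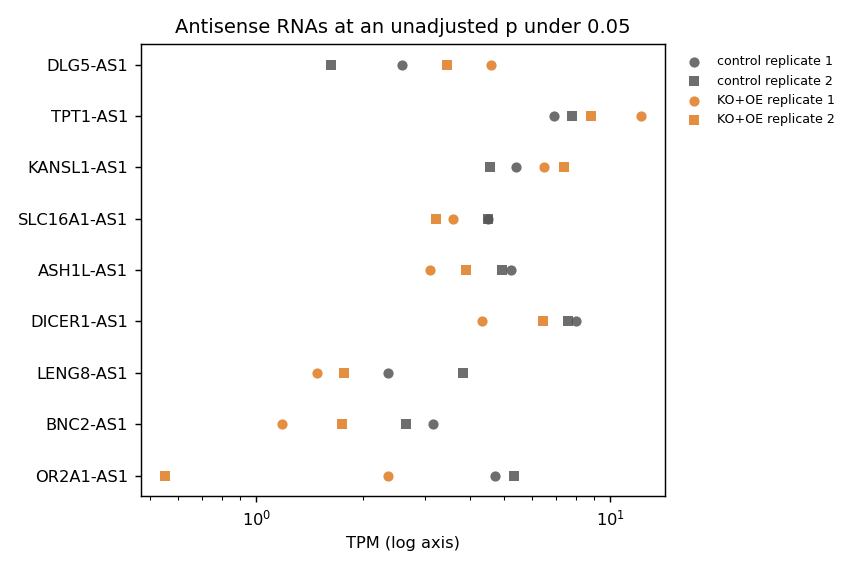
Level in TPM on a log axis (horizontal) of the 9 antisense RNAs at an unadjusted p under 0.05 in each of 4 libraries, with control in grey and KO+OE in orange, and replicate 1 as circles and replicate 2 as squares. The groups are apart in every row because the rows were picked by the test, and none passed an adjusted p of 0.05.

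Some large fold changes rested on single libraries. TSBP1-AS1 was listed at 13.61 TPM in control replicate 2 and at 0.69, 0.52 and 0.60 TPM in the other libraries, so that its log2 fold change of -1.67 became -0.12 without that library. EMC3-AS1 was listed at 8.39 TPM in control replicate 1 and at 2.47, 1.78 and 1.5 TPM in the others, and its log2 fold change of -1.11 became -0.40 without it. EMC3, a subunit of a membrane protein insertion complex, was at 31.42 and 31.28 TPM in control against 33.66 and 44.15 TPM in KO+OE. Members with 1 library at least 3-fold above each of the others were TSBP1-AS1, EMC3-AS1 and SLC12A5-AS1. At 2-fold there were 9, and the high library was control replicate 1 in 3, control replicate 2 in 4, and each KO+OE library in 1.

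Among the other members whose groups did not overlap, SMIM15-AS1 was at 0.93 and 2.36 TPM in control against 0.59 and 0.27 TPM in KO+OE. TMC3-AS1 was at 1.44 and 1.12 TPM in control against 1.60 and 2.75 TPM in KO+OE. KIF9-AS1 was at 0.68 and 0.67 TPM in control against 1.68 and 0.97 TPM in KO+OE. Their log2 fold changes were -0.84, 0.46 and 0.46, and the 95% interval of each reached 0. Each rested in part on 1 library: SMIM15-AS1 was -0.44 without control replicate 2, TMC3-AS1 was 0.19 without KO+OE replicate 2, and KIF9-AS1 was 0.23 without KO+OE replicate 1. TMC3-AS1 was also 0.72 without KO+OE replicate 1.

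None of the members on a short list of antisense RNAs with a described role was among the 9 at an unadjusted p under 0.05 in limma. The list was not complete, so other members, those 9 included, may have described roles. LOXL1-AS1 was at 8.45 and 7.83 TPM in control against 9.43 and 9.71 TPM in KO+OE, which gave a log2 fold change of 0.21, and LOXL1, an elastin cross-linking enzyme, had a log2 fold change of 0.17. GNAS-AS1, an imprinted antisense RNA of the GNAS locus, was at 9.64 and 8.61 TPM in control against 8.23 and 8.17 TPM in KO+OE, while GNAS, which encodes the stimulatory G protein alpha subunit, was at 620 to 639 TPM. TTN-AS1 was at 1.58 and 1.83 TPM in control against 1.24 and 0.75 TPM in KO+OE, while TTN, the gene for the muscle protein titin, was at most 0.02 TPM. FGD5-AS1 stayed between 6.97 and 7.90 TPM, and TMPO-AS1 between 1.58 and 1.98 TPM, with groups that overlapped. PCBP1-AS1, at 5.59, 6.13, 8.53 and 6.08 TPM, and THUMPD3-AS1, at 1.31, 1.61, 2.14 and 1.60 TPM, overlapped as well. NOP14-AS1 was at 3.23 and 3.26 TPM in control against 2.98 and 3.03 TPM in KO+OE, so its groups did not overlap. Its log2 fold change was -0.084, while that of NOP14, higher in both KO+OE libraries, was 0.16. DLGAP1-AS2 was at 1.77 to 2.66 TPM.

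The members were also grouped by 5 families of sense genes, chosen after their values were seen, so the counts are a description. The 9 antisense RNAs of ZNF zinc finger genes ran from 1.94 TPM for ZNF687-AS1 to 8.78 TPM for ZNF433-AS1, and 6 of them were above their sense gene. The 9 of genes for chromatin proteins ran from 1.71 TPM for SATB1-AS1 to 36.0 TPM for HDAC2-AS2, and 6 were above their sense gene. The sense gene was under 1 TPM, which fixed the order by selection, in 4 of the zinc finger and 2 of the chromatin pairs. Fold changes were below 0 for 5 of 9 in the zinc finger, 4 of 7 in the solute carrier, 7 of 9 in the chromatin, 1 of 6 in the RNA-binding and small RNA, and 3 of 5 in the mitochondrial family, beside 54.5% of all genes. The family medians of the log2 fold change were -0.037, -0.036, -0.038, 0.050 and -0.019 in that order. At an unadjusted p under 0.05, beside 5.33% of all genes, were SLC16A1-AS1 among the solute carriers, KANSL1-AS1 and ASH1L-AS1 among the chromatin genes, DICER1-AS1 in the RNA-binding and small RNA family, and 0 in the other two. Families this small do not allow such counts to be read against that share.

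The 130 sense genes that averaged 1 TPM or more were tested in the same fit. None was called at an adjusted p under 0.05 by limma, and 4 (3.08%) had an unadjusted p under 0.05, beside 5.33% of all genes. The median log2 fold change was -0.0035, and the groups did not overlap in 41 (31.5%, background 34.1%). RNF157, a ubiquitin ligase, was at 15.45 and 19.21 TPM in control against 12.67 and 12.24 TPM in KO+OE, which gave a log2 fold change of -0.44 (-0.29 without control replicate 2), and RNF157-AS1 was at 1.43 to 1.80 TPM with overlapping groups. H1-10, a linker histone, was at 193.45 and 182.44 TPM in control against 171.92 and 170.19 TPM in KO+OE, and H1-10-AS1 at 1.25, 2.35, 2.52 and 1.28 TPM. PXN, the focal adhesion protein paxillin, was at 113.33 and 113.55 TPM in control against 120.98 and 122.39 TPM in KO+OE, which gave a log2 fold change of 0.10, and PXN-AS1 at 8.34, 7.88, 6.06 and 7.21 TPM, a log2 fold change of -0.26 that was -0.15 without KO+OE replicate 1. LENG8 was the other. Without KO+OE replicate 2 the count of 4 became 1 (0.769%), where 4.51% of all genes passed.

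Differences in antisense RNAs were finally set against those in their sense genes. Over the 131 pairs with an expressed sense gene, fold changes had the same sign in 60 and opposite signs in 71. The Spearman rho of the log2 fold changes was -0.14 and the Pearson r was -0.051. It was -0.16 in 60 start-to-start pairs, -0.14 in 71 overlapping pairs, -0.20 in 33 pairs with no shared exon base and 0.082 in 11 pairs with at least 50% shared. These are descriptions over pairs that share 4 libraries. Differences between replicates of a group gave a rho of -0.041 in control and 0.0092 in KO+OE. Without control replicate 1 the rho between fold changes was -0.018. CACNA1C, the calcium channel gene with 2 antisense members, was listed at 9.16 TPM in control replicate 1 and at 1.29, 0.93 and 0.74 TPM in the others. CACNA1C-AS1 was at 1.52, 1.23, 0.84 and 1.12 TPM, also highest in that library but by much less. CACNA1C-AS2 was at 4.13, 4.15, 4.48 and 4.44 TPM and was lowest there.

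**Figure D4:**
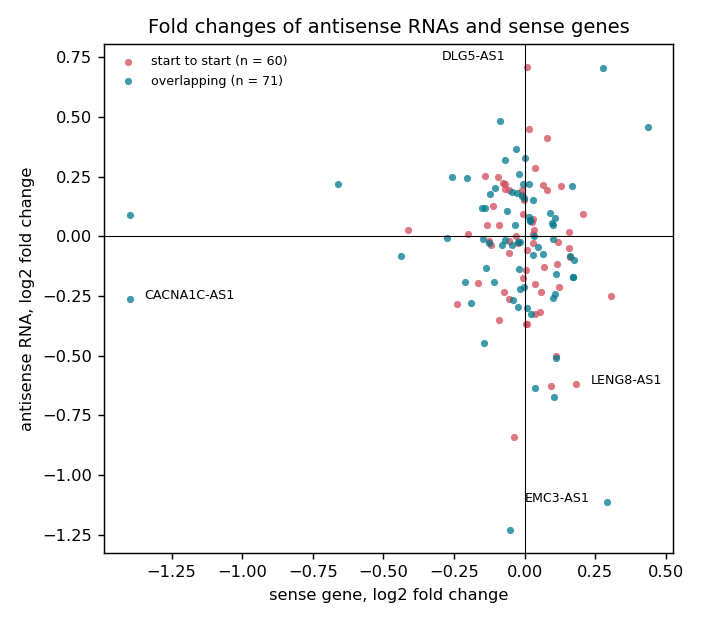
Log2 fold change of KO+OE over control for the antisense RNA (vertical axis) against its sense gene (horizontal axis), on the log2(TPM + 1) scale, in 131 pairs coloured by position. Points scatter around 0 on both axes with 60 of the pairs in the same-sign quadrants, and the leftmost points are both pairs of CACNA1C, whose value rests on 1 control library.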

How the data were processed

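Polyadenylated RNA of 2 control and 2 KO+OE libraries of H9 cells was measured, with groups and replicate numbers taken from the sample titles. The authors deposited 1 table of 60671 genes whose header names no unit. Its values were read as TPM, since each deposited column holds decimals and sums to between 986853 and 987078. The submitters' processing notes name HISAT2, featureCounts, Subread, DESeq2 and hg38 without roles or versions. The annotation and strand setting are not given in the sources used here. The table holds no counts, so depth is unknown and precision comes from replicates. Further columns of per-sample values numbered 0.

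Values were put on the log2(TPM + 1) scale, on which fold changes of weak genes are understated. Those averaging 1 TPM or more, 12319 genes, were compared with limma 3.58.1 (R 4.3.3; lmFit, eBayes with a mean-dependent prior, two-sided) with group as the only term, and p-values were adjusted by Benjamini-Hochberg over all of them. The fit was tested on simulated data. Position classes and exon overlap were read by Ensembl identifier from GENCODE release 44 on GRCh37, and only distances were taken from it. Printed positions and promoter windows came from RefSeq on GRCh38.p14, where 165 of the 184 members matched a gene. Tables were handled in Python 3.11.15 with pandas 2.3.3, numpy 2.4.6 and scipy 1.17.1, and figures were drawn with matplotlib 3.10.9.

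Genes named are the 10 with the highest mean, those at an unadjusted p under 0.05, the 5 largest non-overlapping differences in each direction, the 5 highest and 5 lowest ratios, the 3 rows on each side of the limit of 1 TPM, members with a described role, sense genes at an unadjusted p under 0.05, and the sense genes of these. The members with a described role came from a short list that was not complete. Other genes were named after their values were seen. The members and lists were chosen with earlier results of these data known.

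Alternatives were a pseudocount of 0.1 or 5, the filter removed or raised to 5 TPM, median-ratio and quantile scaling, limma without the mean-dependent prior, a replicate block, and leaving out each library.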

Additional observations from a re-analysis of the deposited data

How the results depend on the processing

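With 2 libraries per group and no counts, differences in the weaker antisense RNAs may have been missed. The size of difference that could be detected in them was not measured. No antisense RNA passed an adjusted p of 0.05 in limma under any alternative run. The correlation of levels stayed between 0.064 and 0.079 when 1 library was left out. In those fits 1 group has a single library, which is assumed to vary like the other group.

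The count of antisense RNAs at an unadjusted p under 0.05 in limma was 9 as reported. With the filter raised to 5 TPM, where fewer were tested, it was 3 of 52 (5.77%, beside 5.57% of all genes). Without the mean-dependent prior it was 16 (8.7%, beside 5.58% of all genes). It was 8 to 16 when 1 library was left out. The count of sense genes, 4 as reported, was 2 without the mean-dependent prior and 1 to 6 when 1 library was left out. The 2 sense genes without the mean-dependent prior were 1.54% of 130, beside 5.58% of all genes. Fits with 1 library left out hold a single library in 1 group, so their counts are a description. The median log2 fold change of the sense genes was 0.0093 with median ratios and 0.010 with quantile scaling. That median was -0.011 to 0.020 when 1 library was left out. The correlation of fold changes across pairs was -0.062 with no filter (180 pairs), 0.084 with the filter at 5 TPM (25 pairs), and -0.12 to -0.018 when 1 library was left out. The cause of these moves was not tested.

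Of 275 recomputed fold changes of 24 named genes, 267 kept their direction and their side of the threshold, and 8 reversed. FOXD3-AS1 was 0.0017 with quantile scaling. When 1 library was left out, FOXD3-AS1 ran from -0.079 to 0.051, THY1-AS1 from -0.043 to 0.044, H1-10-AS1 from -0.27 to 0.36 and RNF157-AS1 from -0.18 to 0.0082.

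The labels do not say whether the replicate numbers pair the libraries. Deviations of same-numbered libraries from their group means had a correlation of -0.049 over 12319 genes. That shows no shared effect by number, but cannot show how the libraries were prepared. With the replicate block 0 antisense RNAs passed an adjusted p of 0.05 in limma. At an unadjusted p under 0.05 were 10 antisense RNAs (5.43%) and 5 sense genes (3.85%), beside 5.46% of all genes.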
